A study of Arabidopsis thaliana with 3 samples.

Results

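The phenylpropanoid pathway and its lignin and flavonoid branches were followed through 34 genes of Arabidopsis thaliana, chosen by locus, of 27374 loci in the files. They comprise 6 regulators, 8 enzymes of the flavonoid branch, 8 enzymes of the general pathway and 12 enzymes of the lignin branch. All 34 were listed in the files and in the RefSeq gene table of assembly TAIR10.1. RNA came from whole wild-type seedlings of the accession Col-0, 9 days old, raised on MS plates at 23 °C in days of 16 h light and 8 h dark. The 3 libraries, numbered 1 to 3, form 1 group with no mutation or treatment, so the comparisons are between genes and branches within these seedlings and between the libraries. Nothing states that the libraries came from separate cultures, and each SD therefore measures the spread between libraries, which may be technical. Each SE and p-value of a pair of genes rests on the same libraries, with a variance drawn towards that of other genes. Levels are FPKM (fragments per kilobase of transcript, scaled to library size), summed over the transcripts of a locus. A whole seedling mixes organs, so fewer cells that express a gene and less RNA per cell cannot be told apart. Both shoot and root markers were present: CAB1 and RBCS1A averaged 14284 and 6896 FPKM, and PYK10, a root gene, 1009 FPKM.

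In this pathway phenylalanine is converted to p-coumaroyl-CoA, the last intermediate that lignin and flavonoids share. The lignin branch reduces and methylates it to monolignols, which are polymerised in the walls of xylem cells. The flavonoid branch joins it with malonyl-CoA into a chalcone, from which flavonols, the red and purple anthocyanins and the proanthocyanidins of the seed coat arise. Flavonoids screen ultraviolet light, and sinapate esters made from lignin intermediates do the same in leaves.

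Taken by branch, the lignin and general enzymes were expressed at many times the level of the flavonoid enzymes, and the regulators lay lowest. In libraries 1, 2 and 3 the flavonoid enzymes summed to 22.9, 17.0 and 21.8 FPKM, against 483, 436 and 469 FPKM for the lignin enzymes. Mean log2(FPKM + 1) over members was 0.35 ± 0.04 for regulators, 1.40 ± 0.12 for flavonoid enzymes, 3.90 ± 0.07 for general enzymes and 4.68 ± 0.08 for lignin enzymes (SD over libraries, n = 3). The difference in this mean was -3.28 ± 0.06 for flavonoid minus lignin, -2.49 ± 0.07 for flavonoid minus general, -0.78 ± 0.02 for general minus lignin and -1.05 ± 0.08 for regulators minus flavonoid. Each difference had the same sign in 3 of 3 libraries. With 0.1 in place of 1 added to FPKM, regulators minus flavonoid was -2.16. The differences are descriptions with no test, since the members were chosen with the levels known. Each gene counts equally, so the order of general and lignin enzymes depends on which paralogs are listed. The general list includes low paralogs such as PAL4 and 4CL3, at 4.80 and 1.09 FPKM. Outside the lignin list are 14 other paralogs of lignin genes, with a median of 2.66 FPKM. Levels summed by step were not compared between these branches. At least 1 FPKM in every library was listed for 0 of 6 regulators, 5 of 8 flavonoid, 8 of 8 general and 12 of 12 lignin genes, 25 of 34 in all, beside 63.2% of all 27164 nuclear genes. The median percentile rank among nuclear protein-coding genes was 20.3 for regulators, 40.0 for flavonoid, 75.9 for general and 86.6 for lignin genes.

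**Figure D1:**
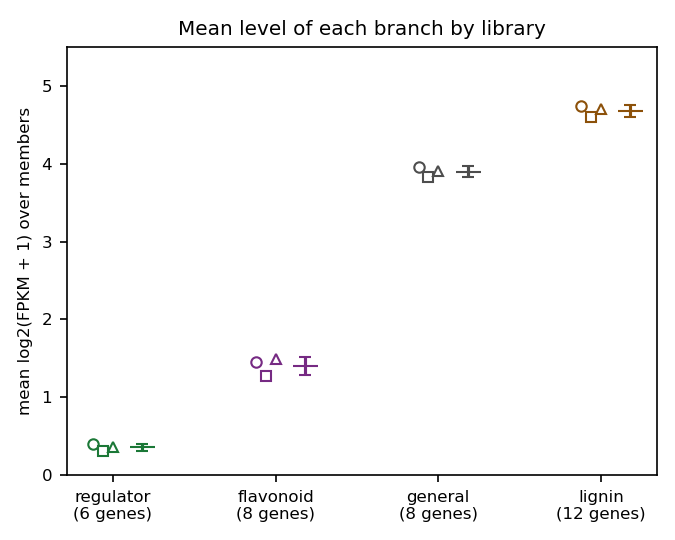
Mean log2(FPKM + 1) over the members of each branch (y axis) in libraries 1 (circles), 2 (squares) and 3 (triangles), with the mean and SD of the libraries beside them. The branch means do not overlap, from 0.35 for regulators to 4.68 for lignin enzymes, though single genes of different branches do.

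The motifs searched upstream differed in kind between lignin and flavonoid genes, while the general enzymes and the regulators each had both kinds among them. AC elements are short motifs bound by MYB factors and known from promoters of lignin genes, and the G-box is bound by bZIP and bHLH factors. The 250 bases before each gene start in TAIR10.1 were searched on both strands for AC-I (ACCTACC), AC-II (ACCAACC), AC-III (ACCTAAC) and the G-box (CACGTG). None of these motifs contains another. An AC element was found in 1 of 6 regulator, 0 of 8 flavonoid, 2 of 8 general and 6 of 12 lignin windows, beside 6.12% of 27438 windows of protein-coding genes. A G-box was found in 1 of 6 regulator, 4 of 8 flavonoid, 1 of 8 general and 0 of 12 lignin windows, beside 6.49% of all. No member had both kinds, which 0.467% of all windows had. All 11 AC matches in members lay on the strand of the gene, beside 57.1% of the 1793 matches in all windows. The counts include the windows of 4CL2, CCR1, LAC17 and F3H, which overlap exons of neighbouring genes. A match is a run of letters and not a shown binding site, and a window without one says nothing of a factor. Gene starts may lie elsewhere in the annotation behind the deposited values, which would shift windows and positions.

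**Figure D2:**
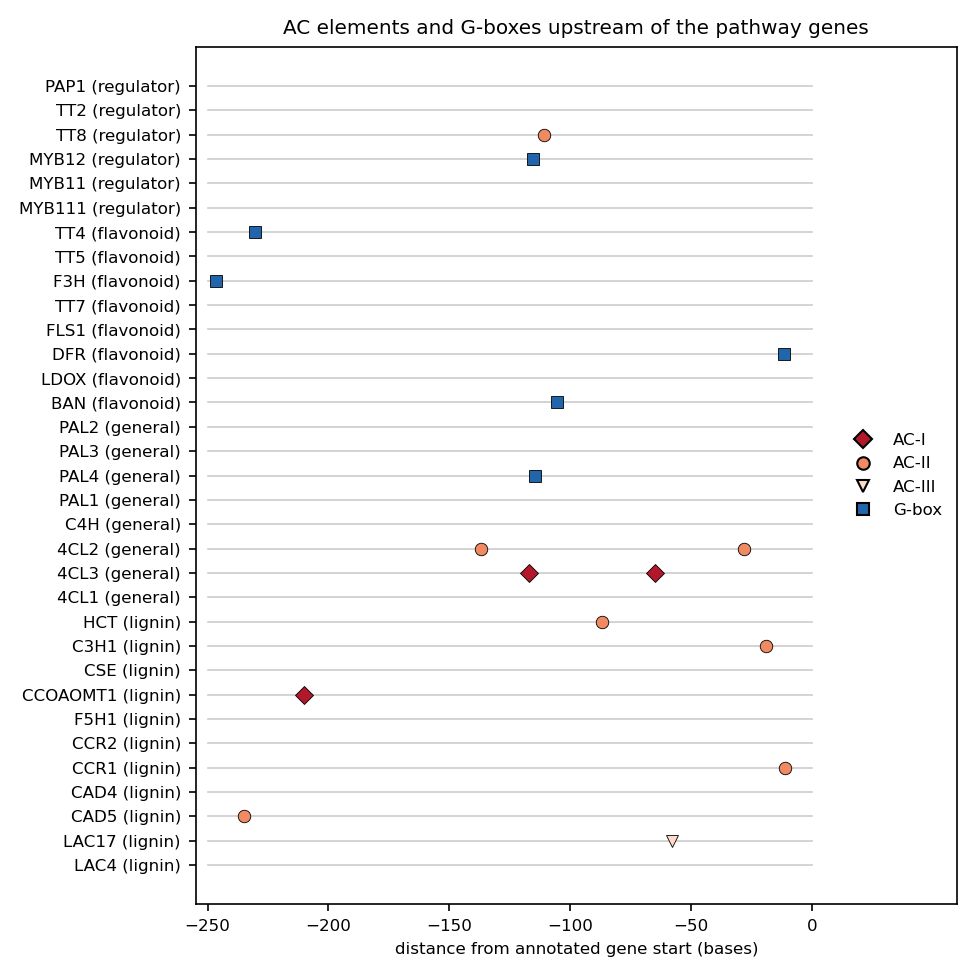
Position of each AC-I, AC-II or AC-III element and G-box (markers) in the 250 bases upstream of the annotated start of each gene named in the text (x axis, bases from the start; rows, genes with their branch). Lignin genes hold 6 windows with an AC element and flavonoid genes 4 with a G-box. The windows of 4CL2, CCR1, LAC17 and F3H, which overlap exons of neighbouring genes, are included.

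The full windows are shown for TT4 and HCT, the first committed enzymes of the flavonoid and lignin branches, which compete for p-coumaroyl-CoA. Sequences are from the RefSeq assembly TAIR10.1, run 5′ to 3′ on the strand of the gene, and carry the motifs in capitals.
TT4, chr5:4488226-4488475 (+): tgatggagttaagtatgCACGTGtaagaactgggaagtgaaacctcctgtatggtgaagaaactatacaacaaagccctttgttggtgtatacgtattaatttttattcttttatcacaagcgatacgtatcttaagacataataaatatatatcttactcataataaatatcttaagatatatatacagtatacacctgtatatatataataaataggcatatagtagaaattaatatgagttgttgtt
HCT, chr5:19838236-19838485 (-): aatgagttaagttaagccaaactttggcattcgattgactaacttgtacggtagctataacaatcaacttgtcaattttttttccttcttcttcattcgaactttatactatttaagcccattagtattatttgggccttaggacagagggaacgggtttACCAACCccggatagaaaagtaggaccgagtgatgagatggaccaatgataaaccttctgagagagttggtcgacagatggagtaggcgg

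Motifs with up to 20 flanking bases are shown next, to let the letters around each match be compared between branches; positions count back from the annotated start, whose upstream neighbour is -1. Besides that of TT4, shown above, the flavonoid G-boxes printed are these.
DFR, G-box from -14 to -9, chr5:17166033-17166066 (-): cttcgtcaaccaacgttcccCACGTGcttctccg
BAN, G-box from -108 to -103, chr1:22792886-22792931 (-): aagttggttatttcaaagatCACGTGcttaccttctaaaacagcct
Besides that of HCT, shown above, the AC elements of lignin genes printed are these.
C3H1, AC-II from -22 to -16, chr2:17060653-17060694 (-): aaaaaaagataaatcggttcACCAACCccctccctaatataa
CCOAOMT1, AC-I from -213 to -207, chr4:16310176-16310222 (+): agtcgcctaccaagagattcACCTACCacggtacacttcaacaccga
CAD5, AC-II from -238 to -232, chr4:16389152-16389190 (-): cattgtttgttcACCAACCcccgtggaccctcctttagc
General enzymes and regulators held the following.
PAL4, G-box from -117 to -112, chr3:3203851-3203896 (+): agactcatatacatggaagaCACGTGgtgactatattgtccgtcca
4CL3, AC-I from -120 to -114, chr1:24171729-24171775 (-): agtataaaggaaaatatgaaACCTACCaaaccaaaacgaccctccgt
4CL3, AC-I from -68 to -62, chr1:24171677-24171723 (-): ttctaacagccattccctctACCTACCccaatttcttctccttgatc
MYB12, G-box from -118 to -113, chr2:19476188-19476233 (+): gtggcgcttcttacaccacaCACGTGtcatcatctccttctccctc
TT8, AC-II from -114 to -108, chr4:6181747-6181793 (+): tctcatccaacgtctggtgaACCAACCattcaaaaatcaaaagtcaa
The matches in 4CL2, CCR1, LAC17 and F3H are not printed, because exons of neighbouring genes cover 222, 53, 250 and 82 of the 250 bases of these windows. They stay in the counts above. Except in LAC17, a match in these windows need not itself lie in an exon.

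At the entry, phenylalanine ammonia-lyase (PAL) removes ammonia from phenylalanine, and 4 genes encode it. PAL2 (AT3G53260) had 41.0, 36.5 and 39.9 FPKM in libraries 1, 2 and 3. PAL1 (AT2G37040) had 29.1, 24.96 and 25.1. PAL3 (AT5G04230) had 8.13, 7.67 and 8.88, and PAL4 (AT3G10340) had 5.20, 4.48 and 4.71. The values of the 4 genes did not overlap, and PAL2 and PAL1 were the high pair in each library. PAL2 supplied 49.8 ± 0.854%, PAL1 33.6 ± 1.51%, PAL3 10.5 ± 0.782% and PAL4 6.10 ± 0.120% of the summed PAL level of 78.5 ± 4.95 FPKM (SD, n = 3). As log2(FPKM + 1), levels differed from PAL1 by 0.55 for PAL2 (SE 0.091), -1.57 for PAL3 (SE 0.10) and -2.24 for PAL4 (SE 0.11). All 3 passed limma with Benjamini-Hochberg adjustment over all genes. So did 94.6% of the 17677 nuclear genes set against PAL1, so the call says only that these levels are not equal.

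C4H (AT2G30490), the cytochrome P450 that turns cinnamate into p-coumarate and the only gene of its step, was the highest general enzyme. It had 86.7, 78.0 and 82.9 FPKM. 4CL (4-coumarate:CoA ligase) makes p-coumaroyl-CoA. 4CL2 (AT3G21240) had 5.83, 5.18 and 5.68 FPKM, and 4CL3 (AT1G65060), the form linked to flavonoid synthesis, 1.21, 1.02 and 1.04. 4CL1 (AT1G51680) had 36.1, 34.6 and 35.8 FPKM, above both others in each library, and held 84.2 ± 0.557% of the summed 4CL level, against 13.2 ± 0.429% for 4CL2 and 2.58 ± 0.199% for 4CL3. The log2 difference from 4CL1 was -2.48 for 4CL2 (SE 0.055) and -4.13 for 4CL3 (SE 0.089). Both passed limma, as did 97.6% of all genes set against 4CL1. Levels of neighbours in the order of the 8 general enzymes overlapped for 1 of 7 pairs, 4CL2 and PAL4. Such a count depends on how far apart the listed levels lie, and no share for other genes was taken, so it says nothing particular about the members.

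HCT (AT5G48930) moves the p-coumaroyl group to shikimate. It had 84.3, 79.9 and 85.7 FPKM. The P450 C3H1 (AT2G40890, CYP98A3 in the gene table) then hydroxylates the ester, at 29.4, 25.9 and 27.5 FPKM. CSE (AT1G52760, LysoPL2 in the table), which releases caffeate from it, had 21.7, 23.0 and 25.4. HCT thus lay above the next pair in every library, and CSE was the only lignin enzyme with its lowest value in library 1.

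CCOAOMT1 (AT4G34050), which methylates caffeoyl-CoA, was the highest of all 34 genes. It had 112, 106 and 110 FPKM, with little spread between libraries. F5H1 (AT4G36220, FAH1 in the table), the P450 that leads to syringyl units and sinapate, had 57.5, 49.6 and 56.2 FPKM.

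Cinnamoyl-CoA reductase (CCR) and cinnamyl alcohol dehydrogenase (CAD) make the monolignols. CCR2 (AT1G80820) had 2.47, 2.37 and 2.61 FPKM, against 43.3, 38.4 and 41.8 FPKM for CCR1 (AT1G15950), the form known from xylem. The groups were far apart, with a log2 difference of -3.60 for CCR2 minus CCR1 (SE 0.096) that passed limma, as did 97.7% of all genes set against CCR1. CAD4 (AT3G19450) had 13.5, 10.2 and 11.8 FPKM, against 23.5, 18.7 and 21.1 FPKM for CAD5 (AT4G34230). CAD4 was lower in 3 of 3 libraries, with a log2 difference of -0.78 (SE 0.12) that passed limma, as did 92.3% of all genes set against CAD5. CAD4 and CAD5 were both highest in library 1 and lowest in library 2. This order is not particular to them: of the 12 lignin enzymes, 8 were highest in library 1 and 10 lowest in library 2.

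Laccases oxidise monolignols in the wall. LAC17 (AT5G60020) had 7.72, 6.83 and 7.88 FPKM, against 8.25, 8.21 and 7.56 FPKM for LAC4 (AT2G38080, IRX12 in the table). Their ranges overlapped, and LAC17 was higher in 1 of 3 libraries. The log2 difference was -0.09 (SE 0.078) and did not pass limma (adjusted p = 0.295), whereas 90.7% of all genes set against LAC4 did. Markers of lignifying xylem were all present: the secondary-wall cellulose synthase genes IRX3, IRX1 and IRX5 averaged 5.12, 5.28 and 6.42 FPKM, and the xylem peptidase genes XCP1 and XCP2 8.11 and 28.3. Across the 12 lignin enzymes, neighbours in the order of levels overlapped for 2 of 11 pairs, CSE with CAD5 and LAC4 with LAC17. This count too depends on the spacing of the listed levels and says nothing particular about the members.

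**Figure D3:**
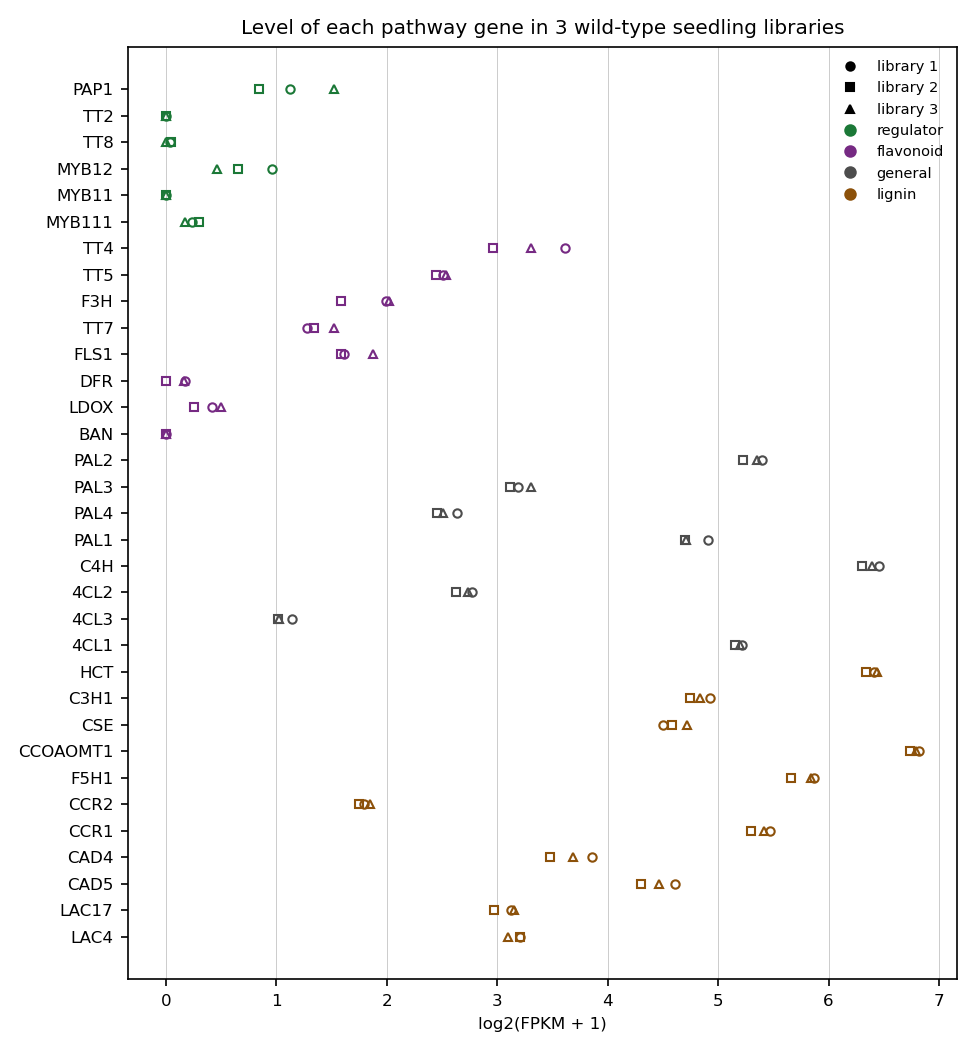
Level of each pathway gene named in the text as log2(FPKM + 1) (x axis) in libraries 1 (circles), 2 (squares) and 3 (triangles), coloured by branch. CCOAOMT1 lies at the right end and BAN, MYB11 and TT2 at 0.

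Levels fell in order over the first 3 flavonoid enzymes. TT4 (AT5G13930), chalcone synthase, had 11.3, 6.81 and 8.88 FPKM. TT5 (AT3G55120), the isomerase that closes the ring, had 4.69, 4.44 and 4.80. F3H (AT3G51240), which makes dihydroflavonols, had 3.00, 2.00 and 3.06. Each of these lay below the one before it in 3 of 3 libraries, and their ranges did not overlap. At the branch point, TT4 was below HCT by a log2 difference of -3.10 (SE 0.096), which passed limma, as did 99.1% of all genes set against HCT.

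TT7 (AT5G07990), the P450 that adds a hydroxyl group to the second ring, had 1.42, 1.54 and 1.88 FPKM. FLS1 (AT5G08640), which makes flavonols, had 2.05, 1.99 and 2.66 FPKM, against 0.128, 0 and 0.124 FPKM for DFR (AT5G42800), which draws the same dihydroflavonols towards anthocyanins. FLS1 was higher in 3 of 3 libraries. The log2(FPKM + 1) difference of 1.57 (SE 0.10), which the added 1 holds down (3.75 with 0.1 added, SE 0.51), passed limma, as did 100% of the 17678 genes set against DFR, so this call sets FLS1 apart from nothing. LDOX (AT4G22880), the next enzyme towards anthocyanins, had 0.340, 0.196 and 0.419 FPKM, and BAN (AT1G61720), which makes the building block of proanthocyanidins, was listed at 0 in all 3 libraries. The 5 steps to flavonols summed to 22.4, 16.8 and 21.3 FPKM and the 3 later ones to 0.469, 0.196 and 0.543. By the estimate from steps in low values, the DFR values stand for about 3.4, 0 and 3.4 fragments and those of LDOX for 8.2, 4.5 and 10.4. Part of the LDOX transcript, 22.9%, matches AT4G22870 at 90% identity or more, so its level is uncertain.

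None of the 6 regulators had 1 FPKM in every library. PAP1 (AT1G56650), an R2R3-MYB that activates anthocyanin genes, was the highest at 1.18, 0.792 and 1.88 FPKM. Its highest library had 2.37 times the level of its lowest. MYB12 (AT2G47460), an activator of flavonol genes, had 0.947, 0.574 and 0.383 FPKM, and its relative MYB111 (AT5G49330) had 0.178, 0.232 and 0.130. The third flavonol activator, MYB11 (AT3G62610), was listed at 0 throughout. So was TT2 (AT5G35550), the MYB of seed coat proanthocyanidins. Its bHLH partner TT8 (AT4G09820) had 0.0303, 0.0315 and 0 FPKM, about 1.1 fragments in the first pair of libraries. MYB12 and MYB11 were below the filter of a mean of 1 FPKM, so their pairs with MYB111 were not tested. In all, 9 of the 10 tested pairs of members passed limma, with a largest adjusted p of 1.52e-09. It was 0.000108 over the 8 passing pairs that could be fitted with the variances of both genes. From 90.7% to 100% of all genes passed against the same references, so this count says nothing particular about the members.

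More than 1 transcript was listed for 9 of the 34 genes. On average 1 form held 96.1% or more of the level in 4CL1, 4CL3, CCR1, CCOAOMT1, CAD5, LDOX and FLS1. In CCR1 it was the second form, AT1G15950.2, with 43.3, 37.7 and 40.4 FPKM, while AT1G15950.1 had 0, 0.720 and 1.37. PAL3 divided its level, with 28.3%, 27.4% and 36.2% in AT5G04230.2 in libraries 1, 2 and 3. In F3H the second form, AT3G51240.2, took 23.9%, 0% and 35.1%. Such shares are estimates, since forms have most of their sequence in common. The first form of F3H, AT3G51240.1, had 2.28, 2.00 and 1.99 FPKM in libraries 1, 2 and 3. The low F3H value in library 2 thus lies mostly in the second form, which was listed at 0 there. Whether the estimation of forms plays a part in it was not tested.

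Library 2 held the lowest value of 23 of the 26 members with a mean of at least 1 FPKM, beside 44.2% of all 17678 genes at that level. Library 1 was lowest for 2 members, TT7 and CSE (28.6% of all genes), and library 3 for 1, LAC4 (27.2% of all genes). Library 2 held the highest value of 0 of 26 members and of 25.9% of all genes. After scaling the libraries to equal median ratios, library 2 was lowest for 21 of 26 members, against 34.5% of all genes, and highest for 1, against 35.3%. These are counts with no test, and genes of a pathway are not independent of each other. The median deviation of library 2 from the mean of the other libraries was -0.16 for flavonoid, -0.12 for general and -0.14 for lignin members at that level, against -0.03 for all genes, on the log2(FPKM + 1) scale.

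The highest and lowest library differed by over 1 on this scale in 0 of 26 members, beside 0.651% of all genes, so this count says nothing particular about the members. TT4 had a coefficient of variation of 24.8%, higher than that of 98.3% of the 7731 genes within a 2-fold range of its level, whose median was 6.45%. For CAD4 and CAD5 it was 14.1% and 11.4%, against medians of 5.97% and 5.12%, and for PAP1 42.9% against 14.6%. 4CL1, at 2.23%, and CCR2, at 4.86%, varied less than most genes of their level. The tissue markers also differed between libraries: in libraries 1, 2 and 3 the root markers PYK10, IRT1 and PHT1;1 summed to 1025, 961 and 1070 FPKM, the 3 green shoot markers to 24203, 22257 and 22528, and the 5 xylem markers to 54.2, 53.3 and 52.3. The sums of the root and green markers were lowest in library 2 and that of the xylem markers in library 3. Single genes differed: CAB1 was lowest in library 3 and IRX5 in library 2. PYK10 made up most of the root sum, and each root marker was lowest in library 2. IRT1 had 2.03, 0.948 and 2.90 FPKM in libraries 1, 2 and 3, and PHT1;1 had 9.87, 6.91 and 8.06. The part of the tissue markers in the result was not tested. Seed markers summed to 0.885, 0.251 and 1.10 FPKM.

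**Figure D4:**
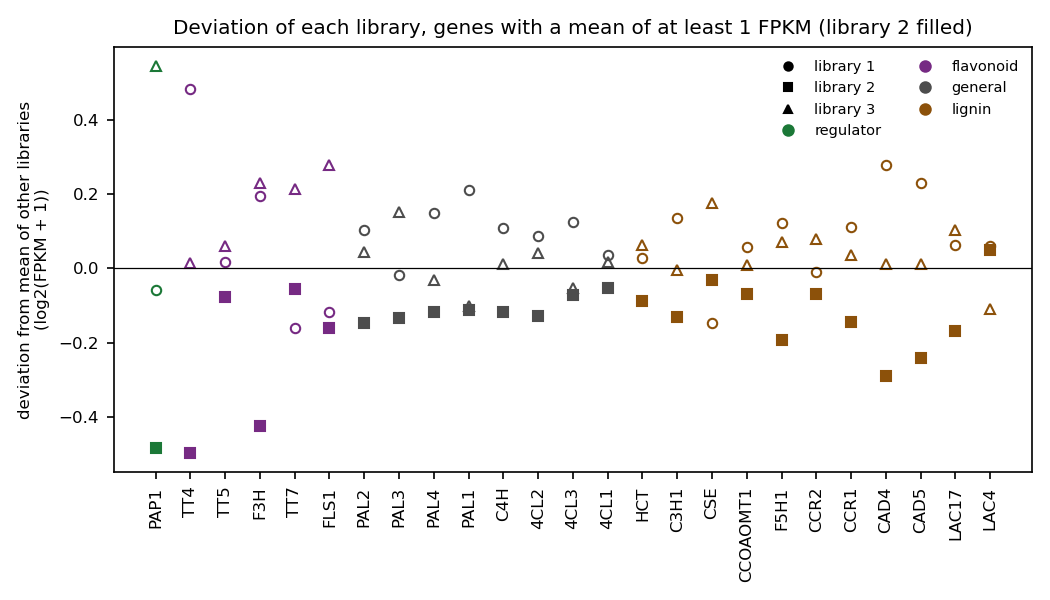
Deviation of each library from the mean of the other libraries on the log2(FPKM + 1) scale (y axis) for the members named in the text that have a mean of at least 1 FPKM, with library 2 filled. Library 2 lies lowest for all of them but TT7, CSE and LAC4, and TT4, F3H and PAP1 deviate most.

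Around these enzymes, 70 further genes in 11 lists were read out as levels. The counts below, of genes with at least 1 FPKM in every library, stand beside 63.2% of all nuclear genes, and shares such as 3 of 5 or 10 of 14 lie near it. The 7 genes of phenylalanine supply all reached 1 FPKM in every library, led by the arogenate dehydratases ADT4 and ADT3 at 18.2 ± 0.942 and 17.8 ± 0.328 FPKM, with ADT1 lowest at 4.80 ± 0.306 (SD, n = 3). All 4 Kelch repeat F-box genes, whose proteins target PAL for degradation, did so too. KFB50 had 223 ± 4.09 and KFB20 175 ± 4.70 FPKM, above every PAL gene and above the PAL sum of 78.5, while KFB01 had 10.7 ± 0.630. The reductases that feed electrons to the pathway's P450 enzymes, ATR1 and ATR2, had 50.9 ± 0.851 and 46.1 ± 1.60 FPKM.

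Sinapate ester synthesis passed 1 FPKM in every library for 3 of 4 genes. SNG1, which makes sinapoylmalate in leaves, had 211 ± 11.96 FPKM, above every one of the 34 members, and REF1, the dehydrogenase that makes sinapate and ferulate, 51.0 ± 1.98. SNG2, of the seed, had 0.0913 ± 0.0393. Among 5 genes of monolignol glucosides, 3 did so. The glucosyltransferase UGT72E1 had 23.7 ± 2.85 and the glucosidase BGLU46 6.17 ± 0.458 FPKM, and UGT72E3 was lowest at 0.525 ± 0.259. Of 14 other paralogs of lignin genes, 10 did so. CAD7 (ELI3-1 in the table) had 99.6 ± 6.01 and CAD9 63.5 ± 2.49 FPKM, both above CAD4 and CAD5, and the peroxidase gene PRX52 0.288 ± 0.241.

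All 6 accessory and glycosylation genes of flavonols reached 1 FPKM in every library. RHM1, which makes UDP-rhamnose, had 28.6, 25.7 and 27.8 FPKM in libraries 1, 2 and 3, the rhamnosyltransferase UGT78D1 10.9 ± 0.743 and FLS3, of the flavonol synthase family, 2.89 ± 0.221 FPKM. Of 6 anthocyanin genes, 3 did so, among them the acyltransferases 3AT1 and 3AT2 at 6.24 ± 0.960 and 5.94 ± 1.00. TT19 (GSTF12 in the table) was listed at 0. At 90% identity or more, 64.9% of the 3AT1 transcript and 93.9% of that of 3AT2 match the other gene, so the split between them is uncertain. No gene of the seed coat list of 5 did so. AHA10 and TT10 had 0.310 ± 0.109 and 0.106 ± 0.0520 FPKM, and TT1 was listed at 0. All 5 were below 1 FPKM, as were BAN, TT2 and TT8.

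Other activators reached 1 FPKM in every library in 3 of 10 cases. TTG1, the WD40 partner of the MYB and bHLH factors, had 18.9 ± 0.594 and HY5, a light-response bZIP, 5.87 ± 1.18 FPKM, whereas PAP2, MYB113 and MYB114, close relatives of PAP1, were listed at 0. All 7 repressors reached that level. MYBL2, a repressor of anthocyanin genes, had 140.2, 136 and 132 FPKM, against 1.18, 0.792 and 1.88 FPKM for the activator PAP1. MED5A had 8.76 ± 0.723 and CPC 2.50 ± 0.192 FPKM.

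**Figure D5:**
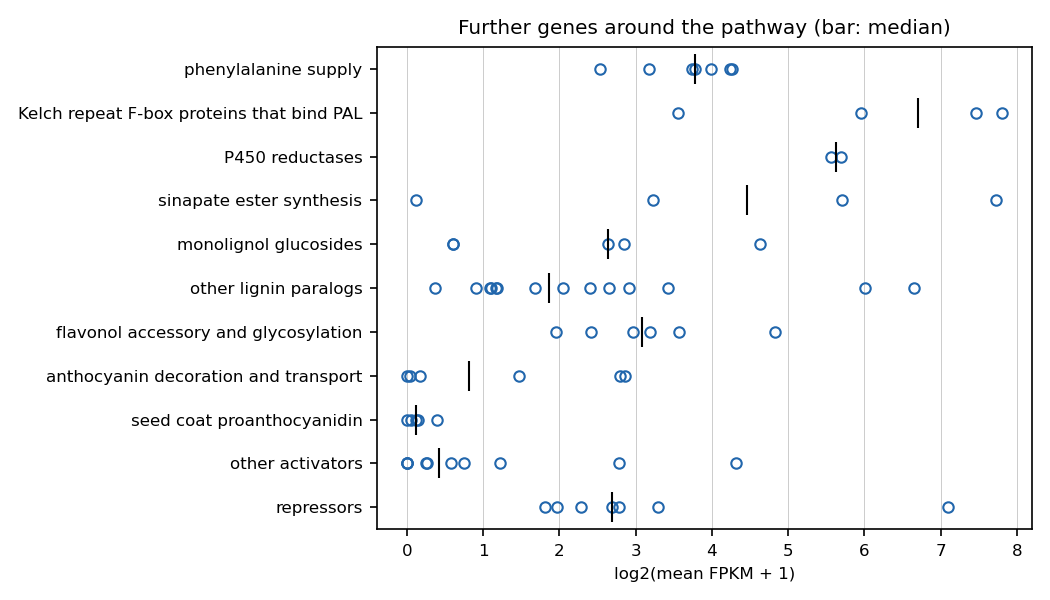
Mean level of 70 further genes around the pathway as log2(mean FPKM + 1) (x axis), 1 circle a gene, by list (rows), with a bar at the median of each list. SNG1, KFB50, KFB20 and MYBL2 lie at the right, and the seed coat genes lie near 0.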

How the data were processed

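Ribosomal RNA was removed and strand-specific Illumina libraries were made, per the labels' protocols. The deposited FPKM values, 1 per transcript for 36172 transcripts, name no unit and were read as FPKM; Cufflinks 2.1.1, TopHat2 2.0.9 and TAIR10 are named per the submitters' processing notes. For the annotation, filters and use of strand in counting, the sources used here give nothing. Summed FPKM was 2064650, 2000110 and 1957870. Read depth is not stated, and steps in the low values of genes with 1 transcript pointed to about 20.0, 19.3 and 20.6 fragments in units of 1e+06, with 43.3%, 40.4% and 45.6% of values within 0.05 of a whole number. Whole reads were therefore not recovered and no count test was run. Values at 0 can be failed estimates.

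From these values, 27374 loci were summed. Members, lists and pairs were chosen with earlier results of these data known. Differences between members were tested with limma 3.58.1 in R 4.3.3 (intercept model on the difference in log2(FPKM + 1) from a reference member within each library, empirical Bayes with trend) over nuclear genes averaging 1 FPKM or more, adjusted over all genes by Benjamini-Hochberg at 0.05. Such folds understate differences of low genes. The procedure was also run on simulated data with PAL1 as the only reference, which says nothing of low references such as DFR. The SE of a pair is drawn towards a trend over all genes and is not the pair's own spread. With 3 libraries, the size of a small p-value carries little information. Named were all members but 1 lignin gene, which is in the counts and sums and is otherwise not reported here, and, of each further list, the 2 highest genes and the lowest. Alternatives were a pseudocount of 0.1, the highest transcript only, no filter, members averaging 1 FPKM or more, the median over members, the variances of both genes, scaled libraries and leaving out each replicate.

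Gene models and upstream sequence came from RefSeq TAIR10.1, which differs in name from the authors' build. By BLAST 2.17.0, 31 of 34 members had no match of 90% identity or more in another gene's transcript. For 8 members, TT4, F3H, 4CL1, C3H1, CCR1, CCR2, LAC17 and MYB11, a gene on the opposite strand overlaps, and their reads may not be separable.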

Additional observations from a re-analysis of the deposited data

How the results depend on the processing

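All 69 repeats of single pairs kept their direction and their side of the threshold. Of pairs of members, 9 passed with a pseudocount of 0.1, with the highest transcript of each locus only and without any 1 replicate, 10 with no filter, where MYB12 minus MYB111 entered, and 8 with the variances of both genes, where the filter leaves no variance for DFR. No branch difference changed sign under the alternatives, none of which summed paralogs by step. With a pseudocount of 0.1 the differences were -4.38 for flavonoid minus lignin, -3.49 for flavonoid minus general, -0.89 for general minus lignin and -2.16 for regulators minus flavonoid. With members of a mean of at least 1 FPKM only, they were -2.54 for flavonoid minus lignin and -1.75 for flavonoid minus general, since the 3 lowest flavonoid genes drop out. With the median over members they were -3.20 for flavonoid minus lignin, -0.75 for general minus lignin and -1.40 for regulators minus flavonoid, and with the highest transcript only -0.84 for general minus lignin. Leaving out 1 replicate gave -3.31 to -3.25 for flavonoid minus lignin, -2.53 to -2.46 for flavonoid minus general, -0.79 to -0.78 for general minus lignin and -1.09 to -1.01 for regulators minus flavonoid. Members lowest in library 2 numbered 25 of 26 without replicate 1 (59.7% of all genes), 23 of 25 without replicate 3 (58.7%), 25 of 31 with no filter (40.9%), 22 of 26 with the highest transcript only (44.0%) and 21 of 26 after scaling (34.5%). With a pseudocount of 0.1, 1 member, PAP1, differed by over 1 between libraries. No paired analysis was possible because the libraries form 1 group, so no replicate numbers pair samples across groups; the differences between genes were taken within each library. Depth limits the 9 members below 1 FPKM in any library.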

Other observations

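Some genes outside the 34 shared the low value of library 2, and they were picked after their values were seen. HY5, a bZIP factor known to activate TT4, had 6.78, 4.54 and 6.29 FPKM in libraries 1, 2 and 3, and TT4 had 11.3, 6.81 and 8.88. The peroxidase gene PRX71 had 7.004, 2.60 and 6.17 FPKM. The sinapate gene SNG1 was lowest in library 1, with 198, 215 and 221 FPKM. Whether HY5 and TT4 vary together cannot be assessed from 3 libraries.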
